A study of Homo sapiens with 8 samples.

Results

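The comparison set 4 arrays of the cisplatin-resistant derivatives CPR20 and CPR55 against 4 arrays of the derivatives CPR40 and CPR70. These are all 8 arrays of the series. The sides were chosen because TM4SF1 had been seen to be high in CPR20 and CPR55 and not in CPR40 and CPR70, so its log2 ratios set the split and are given here as a description with no test. The question was which other genes follow the same split, which does not run with the number in the derivative's name.

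A2780 is a human ovarian carcinoma cell line that is sensitive to cisplatin, a platinum drug that crosslinks DNA. CPR20, CPR40, CPR55 and CPR70 are resistant derivatives of it, made progressively resistant per the series' design text, and CPR00 is the sensitive parental line. All cells grew in RPMI1640 with fetal calf serum, and the labels name no drug treatment at harvest. Each array carried a derivative in Cy5 and CPR00 in Cy3 on spotted cDNA clones. Each derivative was hybridised on 2 arrays, and nothing says that these came from separate cultures, so errors may measure technical spread alone. Each side holds 2 derivatives of 1 parental line, so the 4 arrays of a side are not 4 independent lines.

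TM4SF1 encodes a small membrane protein with 4 membrane-spanning segments that belongs to the L6 family, which resembles the tetraspanins. Tetraspanins and L6 proteins gather integrins and other receptors into patches of the plasma membrane. TM4SF1 is known from carcinomas and from endothelial cells, where it is linked to thin membrane protrusions and migration. In other cell systems its transcription is associated with the YAP and TEAD factors.

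The promoter of TM4SF1 is shown because TM4SF1 was the gene with the largest difference, and that of ANXA1 because ANXA1 had the largest positive difference after TM4SF1 among clones with 8 values whose sides did not overlap. Both are RefSeq sequences of GRCh38.p14, 250 bases before to 50 bases after the annotated start, for TM4SF1 on the minus strand of chr3:149377600-149377899 and for ANXA1 on the plus strand of chr9:73151615-73151914. Capitals mark matches, on either strand, to the TEAD core GGAATG, the AP-1 site TGANTCA, the GC box GGGCGG and the TATA box TATAAA.
TM4SF1: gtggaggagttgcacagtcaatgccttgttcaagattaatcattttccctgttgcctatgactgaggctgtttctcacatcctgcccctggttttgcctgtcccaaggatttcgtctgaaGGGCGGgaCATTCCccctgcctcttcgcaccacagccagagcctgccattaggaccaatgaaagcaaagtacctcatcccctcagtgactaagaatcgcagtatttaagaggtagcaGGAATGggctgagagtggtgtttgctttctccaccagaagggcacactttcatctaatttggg
ANXA1: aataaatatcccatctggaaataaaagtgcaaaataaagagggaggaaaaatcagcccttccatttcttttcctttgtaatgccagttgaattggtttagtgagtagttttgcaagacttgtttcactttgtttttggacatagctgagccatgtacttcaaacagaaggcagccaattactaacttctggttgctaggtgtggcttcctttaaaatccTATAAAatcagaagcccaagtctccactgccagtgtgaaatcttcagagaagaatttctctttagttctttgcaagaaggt
The TM4SF1 window held the TEAD core 2 times, once on each strand, and 1 GC box. Among 35116 RefSeq promoters of the same length, 14% held the TEAD core at least once and 1.37% held it 2 or more times. The GC box was in 45% of them. The ANXA1 window held 1 TATA box, which 11.5% of promoters held, and the TEAD core and AP-1 letters were not in it. KCNK6, which lay lower in CPR20 and CPR55, also held the TEAD core 2 times. A match is a description of the letters only.

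TM4SF1 was far above the parental line on all 4 arrays of CPR20 and CPR55 and close to it on all 4 arrays of CPR40 and CPR70. The gene was measured by 1 clone. Its log2 ratio, derivative over parental, was 3.79 and 2.96 in CPR20, and 3.20 and 3.17 in CPR55. It was 0.52 and -0.02 in CPR40, and 0.32 and 0.25 in CPR70. The sides did not overlap, and the gap between the lowest CPR20 or CPR55 array and the highest CPR40 or CPR70 array was wider than the range within either side. The side means were 3.28 ± 0.36 (SD, n = 4 arrays) and 0.27 ± 0.22 (SD, n = 4 arrays). The difference was 3.01 on the log2 scale, which is 8.07-fold. It was 3.08 on the replicate 1 arrays and 2.95 on the replicate 2 arrays. Within the sides, CPR20 exceeded CPR55 by 0.19, and CPR40 and CPR70 differed by -0.04.

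The channel intensities show where the ratio comes from. A channel was taken as above background when it exceeded the median of the 233 empty spots of its array by 2.6 median absolute deviations. In the derivative channel TM4SF1 gave 1937.4 and 1205.4 in CPR20, and 2199.9 and 857.8 in CPR55, all above background. It gave 164.8 and 676.3 in CPR40, and 52.7 and 153.1 in CPR70. Of these 4, the CPR40 replicate 2 spot alone was above background (311.7 on that array). The parental channel was above background on 1 of 8 arrays, again CPR40 replicate 2, where it read 525.7 against 17.1 to 202.3 on the other arrays. The ratio of -0.02 on CPR40 replicate 2 thus rests on a parental reading unlike that of the other arrays. Apart from that array, TM4SF1 lay near the level of empty spots in the parental line and in CPR40 and CPR70. The parental channel read 65.7 and 69.1 beside CPR20 and 95.5 and 17.1 beside CPR55. It read 202.3 beside CPR40 replicate 1, and 185.0 and 61.5 beside CPR70. Most of these readings were lower beside CPR20 and CPR55, which raises the ratio there before normalisation. With low signal in the denominator, the fold depends on the offset of 50 added to each intensity. With no offset the difference was 3.83, with an offset of 200 it was 2.09, and on the authors' series matrix values it was 4.12.

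**Figure D1:**
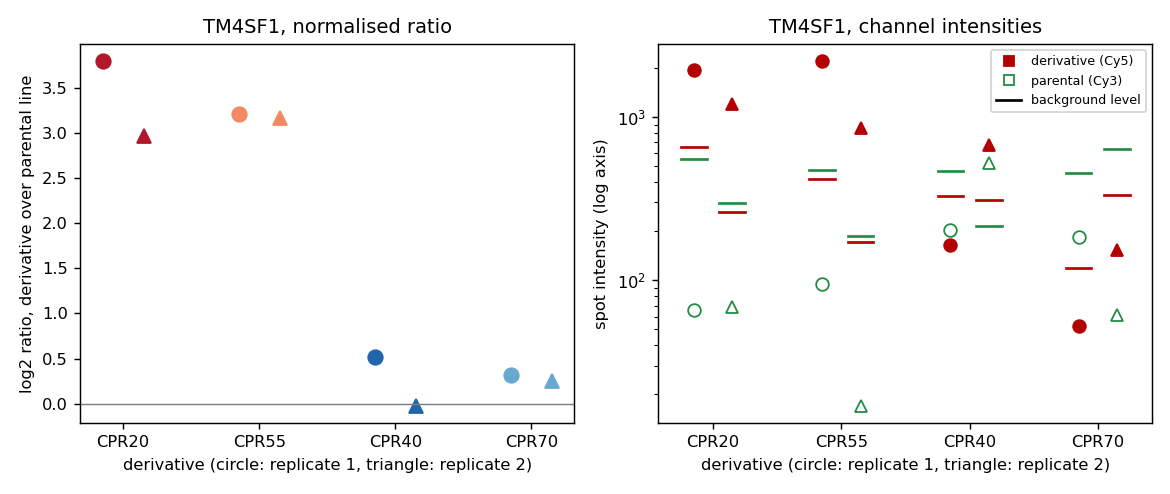
TM4SF1 on each of the 8 arrays, grouped by derivative. Left, the loess-normalised log2 ratio of derivative over parental line. Right, the intensity of each channel on a log axis with that array's background level as a short line. The 4 ratios of CPR20 and CPR55 lie between 2.96 and 3.79, the other 4 between -0.02 and 0.52, and the derivative channel is above background on 4 and on 1 of the 4 arrays.

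The 2 arrays of a derivative belong to separate array sets, marked by the replicate number, and this number was a term of the fit. Between 12759 and 14373 of 14427 clone spots were found per array, and CPR40 replicate 2 stood apart with 15.1% of spots not found, against 0.67% at the lowest. The derivative channel was above background in 26.4% to 60.3% of clone spots and the parental channel in 20.3% to 41.9%. Markers of the labelled tissue were mostly dim. Of 10 measured ovarian and Müllerian lineage genes, PGR alone was above background in the derivative channel on at least 4 of the 8 arrays, and 3 were above it on none. Among 19 epithelial markers KRT18 and SPINT1 reached that level, as did VIM, CDH2, FN1, ACTA2 and THY1 among 18 mesenchymal markers. Among 15 leukocyte markers CD3G and CD4 did, and VWF did among 9 endothelial markers. No marker on these lists passed the test between the sides. ENG, an endothelial marker above background in the derivative channel on 2 and 1 arrays of the sides, was wholly lower in CPR20 and CPR55 (-0.98 ± 0.30, SE).

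Apart from TM4SF1, no clone passed the test for a difference between the sides. The fit covered 13186 clones with limma, and a clone was called at a Benjamini-Hochberg adjusted p under 0.05. The call rate was 0.00758%, which is 1 clone, that of TM4SF1, on which the split was chosen, so nothing is read from it. At an unadjusted p under 0.05 there were 607 clones (4.6%), TM4SF1 included. That share is no more than this level passes on average when no clone differs. Other than TM4SF1 there were 976 by median centring and 357 without the replicate term. No other clone passed under any of the 22 alternatives that were run. The median standard error of a side difference was 0.22 and the median absolute difference 0.18, so differences of the size most clones showed were not resolved with 8 arrays. A missed threshold does not show that a gene is alike on the sides. The 95% intervals below are not adjusted for the number of clones and treat the arrays as independent. Many are of genes picked for a small p or after their values were seen, so they do not show a difference.

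The arrays of CPR20 and CPR55 with a value lay wholly above the others for 195 clones (1.48%) and wholly below for 173 (1.31%), 368 in all (2.79%). These counts include clones with values on fewer than 8 arrays. In 325 clones (2.46%) the sides did not overlap and differed by more than the derivatives of either side did, 168 higher (1.27%) and 157 lower (1.19%) in CPR20 and CPR55. Other than TM4SF1, 186 did on the series matrix values and 447 to 689 with any 1 array left out. A difference of at least 1 on the log2 scale was found in 204 clones (1.55%), of at least 2 in 4 (0.0303%), and of at least 3 in TM4SF1 alone (0.00758%). The 4 beyond 2 were TM4SF1, MMP3, FES and a clone with no gene symbol. Of these, TM4SF1 and FES had sides that did not overlap (0.0152%), and FES had values on only 5 arrays. Among clones with values on all 8 arrays, 17 had sides that did not overlap and a difference of at least 1 (0.157% of 10807).

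**Figure D2:**
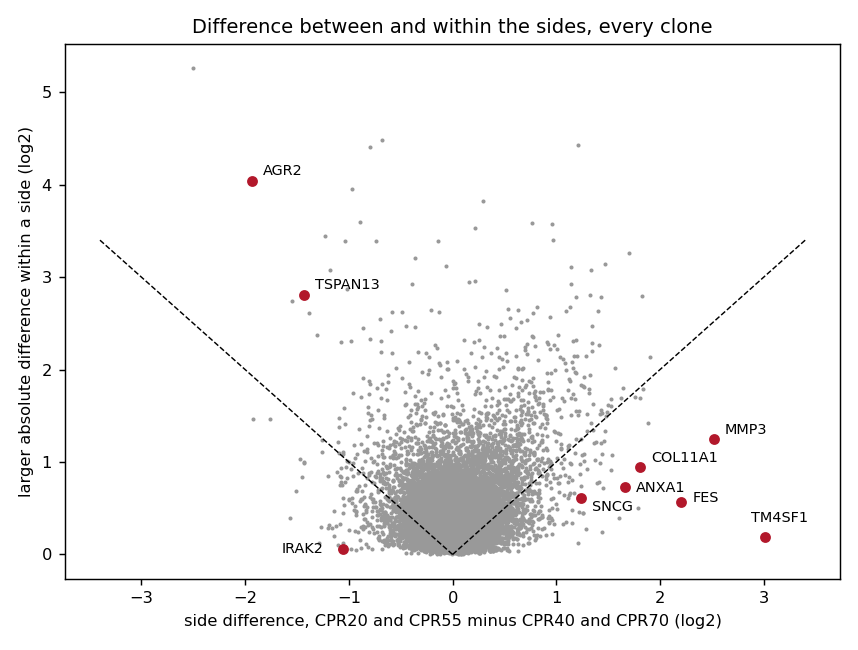
Every fitted clone, with its side difference (CPR20 and CPR55 minus CPR40 and CPR70, log2) on the horizontal axis and the larger of the absolute differences CPR20 minus CPR55 and CPR40 minus CPR70 (log2) on the vertical axis. Below the dashed lines the sides differ by more than the derivatives within them. TM4SF1 lies at 3.01 with 0.19 within its sides, while AGR2 at -1.94 and TSPAN13 at -1.43 lie far above the lines.

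Across all clones the derivatives of a side lay about as far from each other as from those of the other side. The median absolute difference in log2 ratio over 10807 clones with 8 values was 0.241 between CPR20 and CPR55 and 0.213 between CPR40 and CPR70. Across the sides it ran from 0.200, for CPR20 and CPR70, to 0.249, for CPR55 and CPR70. The same-side values thus lay inside the range of the cross-side values. In the 1351 brightest clones the same-side values were 0.202 and 0.146, and the cross-side values ran from 0.154 to 0.210. There CPR40 and CPR70 were the closest pair of the 6.

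Against the parental line, 1056 clones were called in CPR20 and CPR55 (8.01%), 637 higher (4.83%) and 419 lower (3.18%). In CPR40 and CPR70 there were 1725 (13.1%), 868 higher (6.58%) and 857 lower (6.5%). Both comparisons share the parental RNA, leave out its own spread, and hold any gene-specific dye effect, since the derivative was always in Cy5. The counts depend on single arrays: without CPR20 replicate 1 or 2 the first count was 650 or 314, and without CPR55 replicate 1 or 2 it was 561 or 444. Without CPR40 replicate 1 or 2 the second was 878 or 1097, and without CPR70 replicate 1 or 2 it was 739 or 842.

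The genes nearest to the split in the direction of TM4SF1 were SNCG, FES, ANXA1, TMEM59L, TIMP2 and LOXL2. They had the smallest p among genes whose sides did not overlap and differed by more than the derivatives within them, and none passed (adjusted p = 0.896 for each). ANXA1 encodes annexin A1, a calcium-dependent membrane-binding protein of inflammation and epithelial repair. Its log2 ratios were 1.11 and 1.57 in CPR20 and 0.50 and 0.72 in CPR55. They were 0.03 and -0.89 in CPR40 and -0.70 and -1.19 in CPR70. Every CPR20 and CPR55 array was above the parental line, and 3 of the other 4 were below it. The difference was 1.66 ± 0.32 (SE, 95% interval 0.93 to 2.39). The derivative channel of ANXA1 was above background on 2 and 1 arrays of the sides, so its ratios rest in part on low signal.

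SNCG encodes gamma-synuclein, a small cytosolic protein seen in ovarian and breast carcinomas, and it was far below the parental line in all 4 derivatives. Its log2 ratios were -1.70 and -1.58 in CPR20 and -1.31 and -1.32 in CPR55. They were -2.92 and -3.12 in CPR40 and -2.35 and -2.47 in CPR70. The deficit was smaller on every CPR20 and CPR55 array than on any CPR40 or CPR70 array, by 1.24 ± 0.22 (SE, 95% interval 0.74 to 1.74). Both sides fell against the parental line in limma, to -1.48 (adjusted p = 0.00141) and -2.71 (adjusted p = 7.45e-05). The parental channel was above background on all 8 arrays and the derivative channel on none. The difference between the sides therefore compares derivative signals that were not well above background, and no fold is given.

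TIMP2 and LOXL2 act on the extracellular matrix. TIMP2, an inhibitor of matrix metalloproteases that also takes part in activating MMP2, had log2 ratios of 0.65 and 0.41 in CPR20, 1.23 and 0.41 in CPR55, 0.11 and -0.11 in CPR40, and -0.08 and -0.25 in CPR70. The sides did not overlap, and the difference was 0.75 ± 0.18 (SE, 95% interval 0.34 to 1.17). Another clone of TIMP2 gave 0.39 ± 0.25 (SE), with CPR40 arrays inside the range of the other side. LOXL2, a lysyl oxidase-like enzyme that acts on collagens, had log2 ratios of 0.68 and 0.73 in CPR20, 0.38 and 0.73 in CPR55, -0.03 and -0.40 in CPR40, and 0.12 and 0.05 in CPR70. All 4 CPR20 and CPR55 arrays were above the rest, by 0.69 ± 0.18 (SE, 95% interval 0.28 to 1.10). Against the parental line, TIMP2 (0.67, adjusted p = 0.0174) and LOXL2 (0.63, adjusted p = 0.0221) rose in CPR20 and CPR55, and each call held in 5 of 8 fits without 1 array. In CPR40 and CPR70 their levels were -0.08 and -0.06 and did not pass. The derivative channel of each was above background on 4 and 2 arrays of the sides. The parental channel was above it on 2 of 8 arrays for TIMP2 and on 0 for LOXL2, so these calls rest in part on low signal.

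FES, a cytoplasmic tyrosine kinase, had log2 ratios of 1.61 and 0.01 in CPR20 and 2.18 on 1 array of CPR55. It had -0.41 and -0.21 on 1 array each of CPR40 and CPR70. The 3 missing values are all from replicate 2 arrays, so the fitted 2.21 ± 0.30 (SE) is the difference on replicate 1 arrays. FES was above background in the derivative channel on 1 array. TMEM59L, a membrane protein of the secretory route, differed by 0.77 ± 0.18 (SE), with 0.13 to 0.94 in CPR20 and CPR55 and -0.87 to 0.06 in the others.

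The genes nearest to the split in the opposite direction were IRAK2, KCNK6, KCNAB1, ZNF135, FLJ10829 and LOC51195, and none of them passed either (adjusted p = 0.896 for each). IRAK2 is a kinase-like adaptor of interleukin 1 and Toll-like receptor signalling. Its log2 ratios were -0.46 and 0.11 in CPR20 and 0.18 and -0.51 in CPR55. They were 1.04 and 0.69 in CPR40 and 1.12 and 0.72 in CPR70. The sides did not overlap, although the derivative channel of IRAK2 was above background on 1 of 8 arrays. The difference was -1.06 ± 0.21 (SE, 95% interval -1.54 to -0.58). Against the parental line IRAK2 rose in CPR40 and CPR70 (0.89, adjusted p = 0.00741), and this call held in 8 of 8 fits without 1 array. The parental channel of IRAK2 was above background on no array, so the call rests on low signal. On CPR70 replicate 1 the derivative read 73.8 and the parental line 114.9 before normalisation.

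KCNK6, a potassium leak channel, and KCNAB1, a subunit that modulates voltage-gated potassium channels, had the next smallest p. KCNK6 ranged from -0.45 to 0.04 in CPR20 and CPR55 and from 0.16 to 1.26 in CPR40 and CPR70, a difference of -0.84 ± 0.20 (SE). Another KCNK6 clone gave -0.13 ± 0.26 (SE), so the clones of this gene disagree in size. KCNAB1 ranged from -0.33 to -0.14 and from 0.07 to 1.63, a difference of -1.11 ± 0.26 (SE). In CPR40 and CPR70 both rose against the parental line (KCNK6 adjusted p = 0.0188, KCNAB1 adjusted p = 0.0187), which held in 6 and 5 of 8 fits without 1 array. The derivative channel was above background on 2 and 3 arrays of the sides for KCNK6 and on 1 and 1 for KCNAB1. The parental channel was above it on 1 array for each, so these calls rest in part on low signal. ZNF135, a zinc finger protein, differed by -0.94 ± 0.22 (SE), and the clones named FLJ10829 and LOC51195 in the file by -0.90 ± 0.21 (SE) and -0.63 ± 0.16 (SE). ZNF135 and LOC51195 were above background in the derivative channel on no array.

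**Figure D3:**
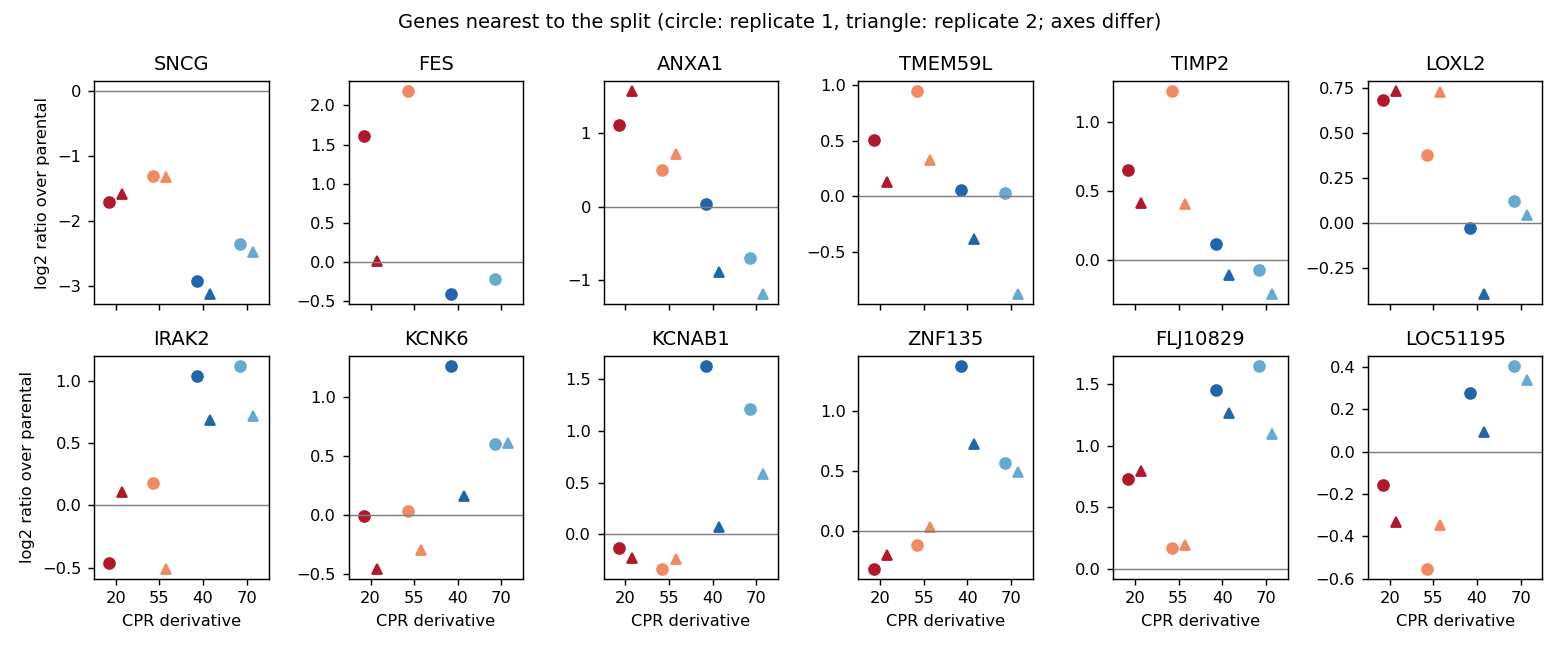
Log2 ratios over the parental line of the 12 genes nearest to the split, 6 higher (top row) and 6 lower (bottom row) in CPR20 and CPR55, by derivative and array set, with vertical axes that differ between panels. In every panel the red and orange points of CPR20 and CPR55 do not overlap the blue points, and all 12 had an adjusted p of 0.896.

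No gene of the families most like TM4SF1 passed the test. Of 29 L6 family and tetraspanin genes listed, 21 other than TM4SF1 were measured, none rose or fell, and their median difference was 0.18 beside 0.02 for all genes. By median centring these medians were 0.017 and -0.017, and on the series matrix values 0.047 and -0.12. TM4SF4, the L6 gene that lies next to TM4SF1 on chromosome 3, differed by -0.05 ± 0.29 (SE, 95% interval -0.74 to 0.65; 0.26 on the series matrix values) over 6 arrays and was above background on none in the derivative channel. TM4SF5, another L6 member, gave 1.33 ± 0.66 (SE, 7 arrays) on its brightest clone and -0.08 ± 0.46 (SE) on another. TSPAN5, which guides the protease ADAM10, gave 0.36 ± 0.16 (SE), but -0.09 by median centring and -0.96 on the series matrix values, and was above background on no array in the derivative channel. The tetraspanins CD9, CD81, CD151 and CD63 gave 0.20, 0.18, -0.06 and -0.28, and the sign of the first 3 turned in some alternatives, for CD81 to -0.82 on the series matrix values. TSPAN13 ran the other way at -1.43 ± 0.73 (SE), and CPR70 carried this alone with log2 ratios of 2.99 and 3.41, while CPR40 had -0.24 and 1.01. Its difference of -2.81 between CPR40 and CPR70 did not pass.

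Neighbours of TM4SF1 on chromosome 3 were read in RefSeq order, 15 genes to each side. Of these 30, 13 were measured, none passed, and differences ran from -0.25 for AGTR1, the angiotensin II receptor, to 0.70 for CP, the copper-carrying protein ceruloplasmin. On CPR70 replicate 2 CP read -4.16, against -0.11 to 0.53 on the other CPR40 and CPR70 arrays, and without that array the difference was -0.41. On that array the derivative channel of CP read 91.4 and the parental channel 2434.2, against 14.1 to 272.8 in the parental channel elsewhere. RNF13 (0.36 ± 0.16, SE) and SIAH2 (0.29 ± 0.15, SE), both ubiquitin ligases, correlated most with TM4SF1 among those with 8 values (0.78 and 0.84), and their sides overlapped. SIAH2 turned to -0.088 by median centring and -0.13 on the series matrix values. PFN2, a profilin that binds actin and was above background on all 8 arrays, gave -0.13 ± 0.16 (SE).

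Likeness in shape was measured by Pearson's correlation with TM4SF1 over the 8 arrays, after the mean of each array set was taken off, in 5057 genes of the brighter part with 8 values. These arrays share the parental RNA and the dye orientation. A correlation of at least 0.9 was found in 22 genes (0.435%) and of -0.9 or lower in 13 (0.257%). These counts move with the processing, to 9 and 48 on the series matrix values, 41 and 13 by median centring, and 6 and 1 without the replicate term. With any 1 array left out they ran from 34 to 76 and from 19 to 59. ARHGEF2, a RhoA exchange factor bound to microtubules, was the most alike (0.96). Its log2 ratios were -0.48 and -0.76 in CPR20, -0.81 and -0.57 in CPR55, -1.17 and -1.24 in CPR40, and -1.23 and -1.08 in CPR70. It was below the parental line everywhere, and less so by 0.52 ± 0.15 (SE) in CPR20 and CPR55. MGC12974 (0.96), ARHGAP1, a GTPase-activating protein for Cdc42 (0.95), ZC3H13, a component of the RNA methylation complex (0.93), and ADM, the hypoxia-responsive peptide adrenomedullin (0.93), followed. Their side differences were 0.40, 0.44, 0.29 and 0.49, against 3.01 for TM4SF1. On the series matrix values ARHGAP1 came to 0.10 (0.18 by median centring) and ZC3H13 turned to -0.04, and another clone of it gave -0.12.

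The genes that ran most against TM4SF1 were MRPS28, KIAA0819, SLC25A3, FLJ11320 and KPNA2, with correlations of -0.97 to -0.94. SLC25A3, the mitochondrial phosphate carrier, had log2 ratios of 0.77 and -0.34 in CPR20, 1.09 and -0.83 in CPR55, 1.85 and 0.57 in CPR40, and 1.83 and 0.10 in CPR70. Within each array set CPR40 and CPR70 were higher, but the replicate 1 arrays lay above the replicate 2 arrays in every derivative and the sides overlapped across sets. The difference was -0.92 ± 0.19 (SE, 95% interval -1.34 to -0.49). SLC25A3 rose against the parental line in CPR40 and CPR70 (1.09, adjusted p = 0.00203), in 8 of 8 fits without 1 array. MRPS28, a mitochondrial ribosomal protein, had the tightest values. It ranged from 0.15 to 0.21 in CPR20 and CPR55 and from 0.35 to 0.44 in CPR40 and CPR70, and differed by only -0.21 ± 0.13 (SE).

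Matrix proteases and their inhibitors remodel the surroundings of the cell. Of 21 measured genes in a list of 22, none rose or fell between the sides, and the median difference was 0.12. MMP3, stromelysin 1, had the largest difference after TM4SF1. Its log2 ratios were 3.89 and 3.28 in CPR20 and 4.79 and 4.87 in CPR55. They were 0.27 and 4.17 in CPR40 and 1.39 and 0.93 in CPR70. CPR40 replicate 2 thus lay among the CPR20 and CPR55 arrays, unlike for TM4SF1. The CPR40 arrays were alike in the derivative channel (1693.2 and 2628.1) and unlike in the parental channel (1189.7 and 65.2), which was above background on replicate 1 alone of the 8 arrays. The difference was 2.52 ± 0.77 (SE, adjusted p = 0.896). It was 3.51 on the replicate 1 arrays, which hold the high CPR40 parental reading, and 1.53 on the replicate 2 arrays. Without CPR40 replicate 2 it was 3.37, in a fit that keeps that high reading.

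MMP1, interstitial collagenase, had log2 ratios of 1.34 and 0.18 in CPR20, 1.60 and 1.46 in CPR55, -0.60 and 0.61 in CPR40, and -0.38 and -0.62 in CPR70. It was above background in the derivative channel on all 4 arrays of CPR20 and CPR55 and on none of the others. The ratios overlapped, since CPR20 replicate 2 lay below CPR40 replicate 2. The difference was 1.39 ± 0.39 (SE, 95% interval 0.50 to 2.28). Against the parental line, 6 of the 21 genes rose in CPR20 and CPR55 and none fell, while 1 rose in CPR40 and CPR70. Over all 9840 genes other than TM4SF1, 520 rose and 335 fell in the former, and 696 rose and 677 fell in the latter. The 6 were MMP1, MMP3, MMP10, PLAUR, TIMP1 and TIMP2, and TIMP1 was the 1 that rose in both. MMP3 (4.21, adjusted p = 0.00367) held in 8 of 8 fits without 1 array and MMP1 (1.14, adjusted p = 0.0419) in 2 of 8. For both genes the parental channel was above background on only 1 of 8 arrays. These calls do not show that the sides differ, since that difference did not pass.

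The other lists are given by their counts and medians. In all 40 lists none of the measured genes rose or fell between the sides. The median for all genes was 0.02, and list medians ran from -0.27, in 10 ovarian and Müllerian lineage genes, to 0.26, in 12 genes of MHC class I and peptide loading. On the series matrix values the median of all genes moved to -0.12, and these 2 medians were -0.33 and 0.21. Among 15 targets of YAP and TEAD the median was 0.21, with 11 above 0, beside 5296 of all 9840 genes other than TM4SF1. This list median ran from 0.13 to 0.27 under 5 other settings of offset and scaling. Against the parental line the list median was -0.13 in CPR20 and CPR55 and -0.33 in CPR40 and CPR70. Of the 15, 3 rose and 2 fell in CPR20 and CPR55, and 2 rose and 6 fell in CPR40 and CPR70. Of all genes 5.28% rose and 3.4% fell in the former, and 7.07% rose and 6.88% fell in the latter. MYOF, a ferlin of membrane repair, had 0.71 and 0.74 in CPR20, 1.66 and 1.22 in CPR55, -0.14 and 0.26 in CPR40, and 0.32 on the CPR70 array with a value. The difference was 0.95 ± 0.29 (SE) and the sides did not overlap, but another clone gave 0.17 ± 0.30 (SE). AMOTL2, which binds YAP, gave 1.44 ± 0.60 (SE), with CPR40 replicate 2 at -3.25, but another clone gave 0.55 ± 0.33 (SE) with that array at 0.53. CCN1, a matricellular protein, gave -0.33, and -0.28 on another clone.

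Integrins, the partners of L6 proteins at the membrane, had a median of 0.05 over 22 genes, and ITGB3, the beta 3 chain, had the highest value at 0.82 ± 0.28 (SE), with -0.11 ± 0.37 (SE) on another clone. Annexins and S100 proteins had a median of 0.10 over 20 genes, of which ANXA1 and ANXA4 (0.43 ± 0.17, SE) were the 2 whose sides did not overlap. On the series matrix values the annexin and S100 median was 0.017. Fibrillar and minor collagens had a median of 0.12 over 15 genes, 0.015 by median centring and 0.023 on the series matrix values. The median of all genes also moved, to -0.017 by median centring and -0.12 on the series matrix values. COL11A1, a minor fibrillar collagen, read 2.84 in CPR20 and 4.50 in CPR55 on replicate 1 arrays but 0.36 and 0.33 on replicate 2 arrays, against -0.24 to -0.06 in CPR40 and CPR70. Its difference was 3.77 on replicate 1 arrays and 0.50 on replicate 2 arrays, with CPR40 replicate 1 missing. The 4.50 rests on a parental reading of 1.0, and the parental channel of COL11A1 was above background on 0 arrays. The derivative channel was above it on 3 and 0 arrays of the sides, so these ratios rest in part on low signal.

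Genes of DNA replication and heat shock had medians below 0, and none passed. The median was -0.24 in 22 replication genes, of which 4 were above 0. In 14 heat shock genes it was -0.24, and 2 were above 0. Of all 9840 genes other than TM4SF1, 5296 were above 0. Both list medians were below 0 under each of 5 other settings of offset and scaling. MCM4, a subunit of the replicative helicase, gave -0.90 ± 0.17 (SE, 7 arrays, 95% interval -1.29 to -0.50), but it was above background in the derivative channel on no array. RRM2, a subunit of ribonucleotide reductase that was above background on all 8 arrays, gave -0.59 ± 0.27 (SE). In CPR40 and CPR70, 3 of 22 replication genes and 7 of 14 heat shock genes rose against the parental line, and in CPR20 and CPR55 0 and 3 did. Over all genes 7.07% rose in the former and 5.28% in the latter. Whether these lists differ between the sides as lists was not tested.

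Genes tied to cisplatin handling showed no call. The median was -0.14 in 10 drug efflux pumps (-0.0062 on the series matrix values) and -0.06 in 10 copper and platinum carriers. It was 0.06 in 26 glutathione and NRF2 genes and 0.01 in 25 genes of excision, crosslink and recombination repair. These last 2 medians were below 0 by median centring and on the series matrix values. The median of all genes was too, at -0.017 and -0.12. ABCG2, an efflux transporter, had sides that did not overlap, at 0.38 ± 0.14 (SE), while another clone gave -0.42 ± 0.27 (SE). The former clone was above background in the derivative channel on 2 and 0 arrays of the sides and in the parental channel on 1. Of 17 targets of p53 the median was 0.18 (0.082 on the series matrix values), and PLK2, a stress-induced kinase, did not overlap at 1.09 ± 0.31 (SE). The PLK2 difference ran from 0.11 to 1.40 over 22 alternatives. Its mean log2 ratio was 0.88 in CPR20 but 0.01 in CPR55. PLK2 was above background in the derivative channel on 3 and 1 arrays of the sides and in the parental channel on 1. Against the parental line 7 of the 17 p53 targets fell in CPR20 and CPR55, and 6 fell in CPR40 and CPR70. Of all genes, 3.4% and 6.88% fell. In 28 hypoxia and glycolysis genes the median was 0.22, with 22 above 0, beside 5296 of all 9840 genes. On the series matrix values it was 0.054, beside -0.12 for all genes. BNIP3L, a mitophagy receptor, gave 0.93 ± 0.23 (SE), lower on replicate 1 than on replicate 2 arrays in every derivative.

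**Figure D4:**
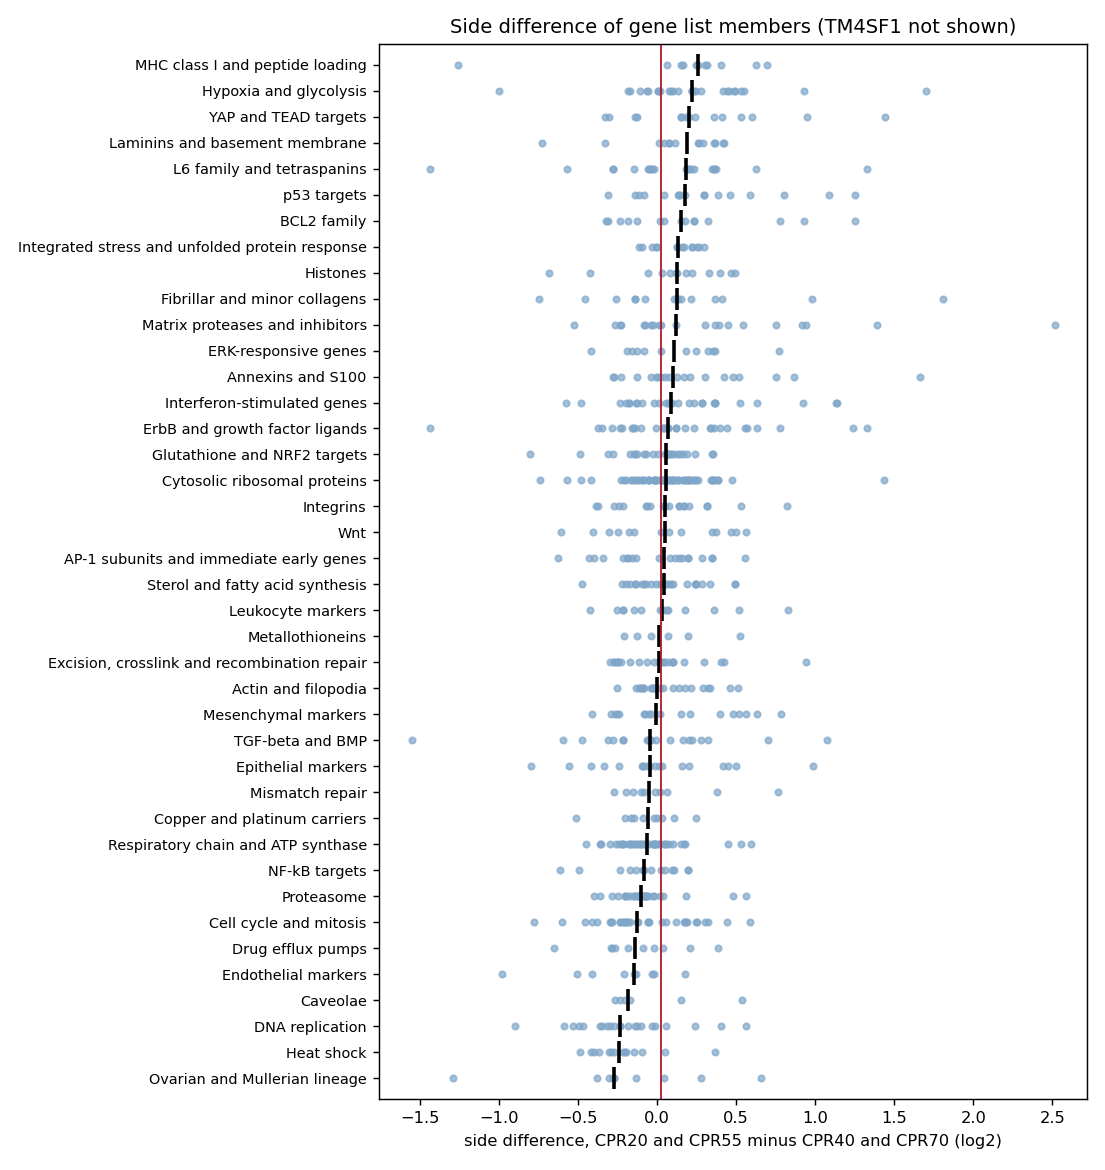
Side difference (CPR20 and CPR55 minus CPR40 and CPR70, log2) of each measured member of the 40 gene lists other than TM4SF1, with the list median as a black bar and the median of all genes, 0.02, as a red line. List medians lie between -0.27 and 0.26, and no point passed the test.

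Between CPR20 and CPR55 no clone passed in limma, with 767 at an unadjusted p under 0.05 (5.82%), and between CPR40 and CPR70 none did, with 722 (5.48%). Some alternatives called 1 to 8 clones between CPR40 and CPR70. Some of the most negative side differences were carried by 1 derivative. AGR2, a protein disulfide isomerase of secretory cells, had the lowest value of any named gene at -1.94 ± 1.00 (SE). Its log2 ratios were 3.47 and 4.95 in CPR70 and between -0.61 and 0.94 in the other derivatives, and it was above background in the derivative channel on the CPR70 arrays alone. For a change of the side difference between the array sets, limma called 0 clones, with 589 at an unadjusted p under 0.05.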

How the data were processed

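The deposited table gives, per the file headers, a Cy5 and a Cy3 intensity per spot on a linear scale, a calibrated ratio and a spot area (a measure of another kind, with no unit in the deposited file). The authors' ratio equals Cy5 over Cy3 scaled by a factor for the array, 0.553 to 1.65 as recomputed here. The deposited series matrix holds the log2 of that ratio. Scanner software and background treatment are not given in the sources used here, and 8 value columns of no described sample were not used.

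Of 15360 spots, 233 empty spots and 700 spots with no clone data had weight 0. Spots with an area of 0 were missing. Log2 ratios (offset 50) were normalised by loess in each array. Repeat spots of 1 clone were averaged, and 13186 of 13340 clones with a value in each derivative were fitted with limma 3.58.1 in R 4.3.3, with side and replicate number as terms (5 residual degrees of freedom, 3.36 prior). A gene is its brightest clone. Fitted fold changes understate the change of dim genes because of the offset. Of the file's gene symbols, 5427 are current in RefSeq, 2100 are older names that were updated, and 243 ambiguous and 2192 unmatched ones were kept. The replicate number marks the array set and was a term of the fit as the comparison's rule asks.

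The members, the 40 lists and the tests were chosen with earlier results of these data known. Genes named are TM4SF1, up to 6 per direction with the smallest p that have the shape of the split, and the 5 most correlated and 5 most anticorrelated with TM4SF1. Other genes, from lists or neighbours of TM4SF1, were chosen after their values were seen. The fit was tested on simulated data with independent noise on each array. That cannot speak to spread shared by the arrays of a derivative or to low signal. The number of arrays limits the precision.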

Additional observations from a re-analysis of the deposited data

Results flagged for a closer look

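In 96 groups of 4 arrays of named genes, Dixon's test at the 95% level picked out 7 single arrays, where chance picks about 1 in 20 groups. NDRG1, a hypoxia-responsive gene, read -5.36 (log2 ratio) on CPR70 replicate 2 against -0.02 to 0.99 on the other CPR40 and CPR70 arrays. There its derivative channel read 1.0 and its parental channel 1945.0, against 13.3 to 264.0 in the parental channel of the other arrays. LOXL2 read 0.38 on CPR55 replicate 1 against 0.68 to 0.73 on the other CPR20 and CPR55 arrays. PLK2 read -1.19 on CPR70 replicate 2 against -0.48 to -0.42 on the other CPR40 and CPR70 arrays. CP read -4.16 on CPR70 replicate 2, where its parental channel read 2434.2, against -0.11 to 0.53 on the other CPR40 and CPR70 arrays. CD81 read 1.05 on CPR40 replicate 2 against -0.57 to -0.43. In CPR20 and CPR55, CD151 read 1.55 on CPR55 replicate 1 against 0.39 to 0.54, and RNF13 read 0.52 on CPR55 replicate 2 against 0.02 to 0.09.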

How the results depend on the processing

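In all 22 alternatives run, 0 clones other than that of TM4SF1 were called between the sides. Alternatives were run for the side differences of 51 other genes, which gave 1086 values, none past the threshold, of which 1068 kept their sign. By median centring TSPAN5 turned to -0.086 and SIAH2 to -0.088. On the series matrix values TSPAN5 turned to -0.96, SIAH2 to -0.13, CD81 to -0.82, ZC3H13 to -0.042 and TM4SF4 to 0.26. On the replicate 1 arrays alone CD9 turned to -0.41 and CP to -0.79, and on the replicate 2 arrays alone CD151 turned to 0.076, CD81 to -0.21 and PFN2 to 0.039. Leaving out 1 array gave -0.26 to 0.20 for CD151, -0.12 to 0.57 for CD81, -0.00071 to 0.41 for CD9 and -0.41 to 1.21 for CP. The TM4SF1 difference ran from 2.09 to 4.12. CPR40 against CPR70 had 0 calls, but 8 with an offset of 200, 4 for clones above background on at least 2 arrays, and 1 each by scaling between arrays, for clones with 8 values and for the mean over clones of a gene. Against the parental line, without the replicate block 546 (CPR20 and CPR55) and 996 (CPR40 and CPR70) clones were called. On the replicate 1 arrays alone there were 48 and 117, on the replicate 2 arrays alone 203 and 484, and on the series matrix values 512 in CPR20 and CPR55. Leaving out 1 array gave 314 to 932 and 739 to 1898. The cause of these shifts was not tested, apart from the fewer arrays. Signal near background limits most ratios here.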
